A study of Mus musculus with 12 samples.

Results

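Phgdh, Psat1, Psph, Shmt2, Mthfd2, Aldh1l2, Asns, Pycr1, Aldh18a1 and Cth encode enzymes that build serine, mitochondrial one-carbon units, asparagine, proline and cysteine. These 10 genes, of 23893 in the count table, were chosen by symbol, and the choice was made on values of these same libraries: several of them were already known to be lower in WT-Topot or in Top1 cKO-Veh than in WT-Veh. Differences from WT-Veh are therefore given for the 10 genes as a description, without p-values. Counts of the 10 genes past a threshold are a description too.

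Serine is made from a glycolytic intermediate by PHGDH, PSAT1 and PSPH acting in sequence. SHMT2, the mitochondrial serine hydroxymethyltransferase, splits serine into glycine and a one-carbon unit carried on folate, which MTHFD2 and ALDH1L2 oxidise further inside mitochondria. In brain, serine synthesis is best known from astrocytes and progenitor cells, and many of these enzyme genes are textbook targets of ATF4, the transcription factor of the amino acid response.

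RNA-seq was performed on 12 mouse cortical neuron cultures, 3 in each of 4 groups. The labels give the strain as C57BL6 and the genotype as Wild-type (WT) or Top1cKO (Top1 cKO). According to the methods of the study, both genotypes were Top1 fl/fl cultures, prepared from embryos at E13.5 to E15.5 and infected with lentivirus at 3 days in vitro. The WT groups received a tdTomato vector and the Top1 cKO groups a tdTomato-P2A-CRE vector, each driven by the CaMKIIα promoter. At 15 days in vitro, cultures of each genotype were given 0.003% DMSO alone (vehicle, WT-Veh and Top1 cKO-Veh) or 300 nM topotecan in the same DMSO (WT-Topot and Top1 cKO-Topot), and RNA was taken 3 days later. Where values of the 4 groups follow one another, WT comes before Top1 cKO and, within each, vehicle before topotecan (the 3 groups other than WT-Veh are taken in that order too). Topotecan is a drug that traps topoisomerase 1 (TOP1) on DNA. The promoter acts in neurons and 85 to 90% of cells were transduced, so that other and uninfected cells can have kept Top1, whereas topotecan was added to the whole culture.

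Libraries held 1730164 to 4583777 counts over genes. Levels are given in CPM, counts per 1000000 of the TMM-scaled library size, and 3 counts correspond to 0.687 to 1.73 CPM. Top1 was at 117 to 163 CPM in the 6 WT libraries and at 27.1 to 44.0 CPM in the 6 Top1 cKO libraries. Summed over 8 genes each, neuron markers reached 4668 to 6843 CPM and astrocyte markers 1045 to 5803 CPM, so the cultures labelled cortical neurons also held astrocyte RNA. Microglia (8 genes, 2.51 to 20.2 CPM summed), endothelial and mural cell (6 genes, 9.45 to 43.4 CPM) and oligodendrocyte lineage markers (8 genes, 98.5 to 297 CPM) were lower than both. By group, the oligodendrocyte lineage sum was 98.5 to 155, 128 to 152, 141 to 195 and 136 to 297 CPM. The endothelial marker Cldn5 was at 0 in every library of 3 groups, and Itgam, a microglia marker, in those of Top1 cKO-Topot.

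The 3 serine synthesis genes had lower means in all 3 other groups than in WT-Veh. Psat1, the aminotransferase of the second step, was at 152, 146 and 128 CPM in the WT-Veh libraries numbered 1, 2 and 3. It was at 106, 66.1 and 39.8 CPM in WT-Topot, at 78.6, 46.9 and 42.1 CPM in Top1 cKO-Veh and at 64.1, 40.2 and 36.7 CPM in Top1 cKO-Topot. No library of these 3 groups reached the lowest WT-Veh library, and the other 3 groups overlapped one another. Within replicate numbers, Psat1 in Top1 cKO-Topot differed from Top1 cKO-Veh by -0.29, -0.22 and -0.19, and from WT-Topot by -0.71, -0.70 and -0.11, on the log2(CPM + 1) scale. The log2 fold changes of the 3 groups from WT-Veh were -1.0 ± 0.25, -1.34 ± 0.23 and -1.57 ± 0.23 (SE, n = 3 per group). In bulk RNA, fewer cells of a type and less RNA per cell cannot be told apart.

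Psph, the phosphatase that releases free serine, was at 35.7, 42.5 and 27.6 CPM in WT-Veh. Its WT-Topot libraries were at 11.4, 12.3 and 10.3 CPM, and those of Top1 cKO-Topot at 12.7, 11.96 and 14.4 CPM. In Top1 cKO-Veh it was at 8.60, 7.33 and 16.5 CPM. All 9 of these values were below the lowest of WT-Veh, with no order among the 3 groups. The means of the 3 groups were 32.1%, 30.7% and 37.0% of that of WT-Veh, with log2 fold changes of -1.63 ± 0.27, -1.76 ± 0.33 and -1.42 ± 0.28.

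Phgdh, which catalyses the first and committed step, was near the limit of detection, with 51, 25, 15 and 18 counts in all in the 4 groups. Its WT-Veh libraries were at 9.07, 6.14 and 3.46 CPM, and the WT-Topot libraries at 3.69, 2.86 and 1.71 CPM, so that WT-Veh and WT-Topot overlapped. It was at 2.35, 1.60 and 1.002 CPM in Top1 cKO-Veh and at 3.19, 2.66 and 0.874 CPM in Top1 cKO-Topot, below every WT-Veh library. Within each replicate number, Phgdh was highest in WT-Veh, and its log2 fold changes were -1.18 ± 0.49, -1.91 ± 0.55 and -1.45 ± 0.55.

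All 3 mitochondrial one-carbon genes stood apart in WT-Veh, and Shmt2 and Mthfd2 had the lowest Top1 cKO-Veh levels relative to WT-Veh of the 10 genes. Shmt2 was at 65.5, 59.6 and 51.3 CPM in WT-Veh and at 20.4, 21.5 and 16.3 CPM in WT-Topot. It was at 10.9, 9.85 and 7.52 CPM in Top1 cKO-Veh and at 11.6, 7.97 and 10.5 CPM in Top1 cKO-Topot. Every Top1 cKO library was below every WT-Topot library, which in turn was below every WT-Veh library. The means of the 3 groups were 33.0%, 16.0% and 17.0% of that of WT-Veh, corresponding to log2 fold changes of -1.59 ± 0.23, -2.62 ± 0.26 and -2.54 ± 0.27. In the mm9 annotation, 14 bases of Shmt2 exons lie under an exon of Ndufa4l2 on the opposite strand. No exon of the other 9 genes overlapped another gene.

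Mthfd2, a bifunctional methylene-folate dehydrogenase and cyclohydrolase, was at 34.8, 38.6 and 37.4 CPM in WT-Veh. It was at 7.37, 12.02 and 10.7 CPM in WT-Topot, at 9.39, 5.27 and 7.01 CPM in Top1 cKO-Veh and at 6.77, 5.31 and 6.56 CPM in Top1 cKO-Topot. The WT-Veh libraries stood apart from all others. Its log2 fold changes from WT-Veh were -1.87 ± 0.28, -2.37 ± 0.30 and -2.55 ± 0.30 in the 3 groups.

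Aldh1l2, the mitochondrial 10-formyltetrahydrofolate dehydrogenase, varied more between replicate numbers. It was at 42.1, 40.3 and 23.0 CPM in WT-Veh and at 13.7, 19.5 and 3.43 CPM in WT-Topot. The Top1 cKO-Veh libraries held 16.4, 8.70 and 4.51 CPM and the Top1 cKO-Topot libraries 7.17, 8.30 and 8.31 CPM. The lowest WT-Veh library was above all 9 others, and the library numbered 3 was the lowest in 3 of 4 groups. The log2 fold changes from WT-Veh were -1.49 ± 0.39, -1.82 ± 0.38 and -2.13 ± 0.32.

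Asns, the glutamine-dependent asparagine synthetase, was the most abundant of the 10 genes and, within WT-Veh, the most even. It was at 269, 281 and 274 CPM in WT-Veh (274 ± 5.71, mean ± SD). It was at 119.97, 107 and 100.2 CPM in WT-Topot, at 127, 107 and 108 CPM in Top1 cKO-Veh and at 129, 73.1 and 102 CPM in Top1 cKO-Topot. The 3 lower groups lay in 1 band at 39.7%, 41.5% and 37.0% of the WT-Veh mean. The log2 fold changes from WT-Veh were -1.32 ± 0.18, -1.27 ± 0.17 and -1.41 ± 0.21.

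Of the 2 proline synthesis genes, Aldh18a1, which encodes pyrroline-5-carboxylate synthase, was at 70.8, 68.8 and 44.3 CPM in WT-Veh. It was at 30.2, 30.9 and 25.3 CPM in WT-Topot, at 31.7, 28.9 and 20.04 CPM in Top1 cKO-Veh and at 26.7, 30.6 and 22.3 CPM in Top1 cKO-Topot. The WT-Veh libraries were again all above the other 9, which overlapped among themselves at 46.9%, 43.8% and 43.2% of the WT-Veh mean, or -1.09 ± 0.23, -1.19 ± 0.26 and -1.19 ± 0.25 on the log2 scale. Pycr1, the mitochondrial reductase of the last step, had only 44, 22, 18 and 16 counts in the 4 groups. It was at 9.07, 2.63 and 4.03 CPM in WT-Veh, at 5.03, 1.43 and 0.856 CPM in WT-Topot, at 1.56, 2.29 and 2.004 CPM in Top1 cKO-Veh and at 3.98, 0.664 and 1.75 CPM in Top1 cKO-Topot, with overlap of WT-Veh and both topotecan groups and log2 fold changes of -1.12 ± 0.61, -1.44 ± 0.57 and -1.34 ± 0.63.

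Cth, the cystathionine gamma-lyase of cysteine synthesis, was barely detected, with 29, 20, 9 and 2 counts in the 4 groups. Its libraries were at 3.80, 4.82 and 2.88 CPM in WT-Veh and at 0, 3.43 and 3.43 CPM in WT-Topot. They were at 0.391, 0.916 and 2.004 CPM in Top1 cKO-Veh and at 0, 0.332 and 0.437 CPM in Top1 cKO-Topot. WT-Topot overlapped WT-Veh, and the Top1 cKO libraries all lay below it. The ratio of Top1 cKO-Topot to WT-Veh was 0.0657 (95% interval 0.00759 to 0.260, exact Poisson, counting error only), and that of Top1 cKO-Veh to WT-Veh was 0.259 (0.108 to 0.561).

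**Figure D1:**
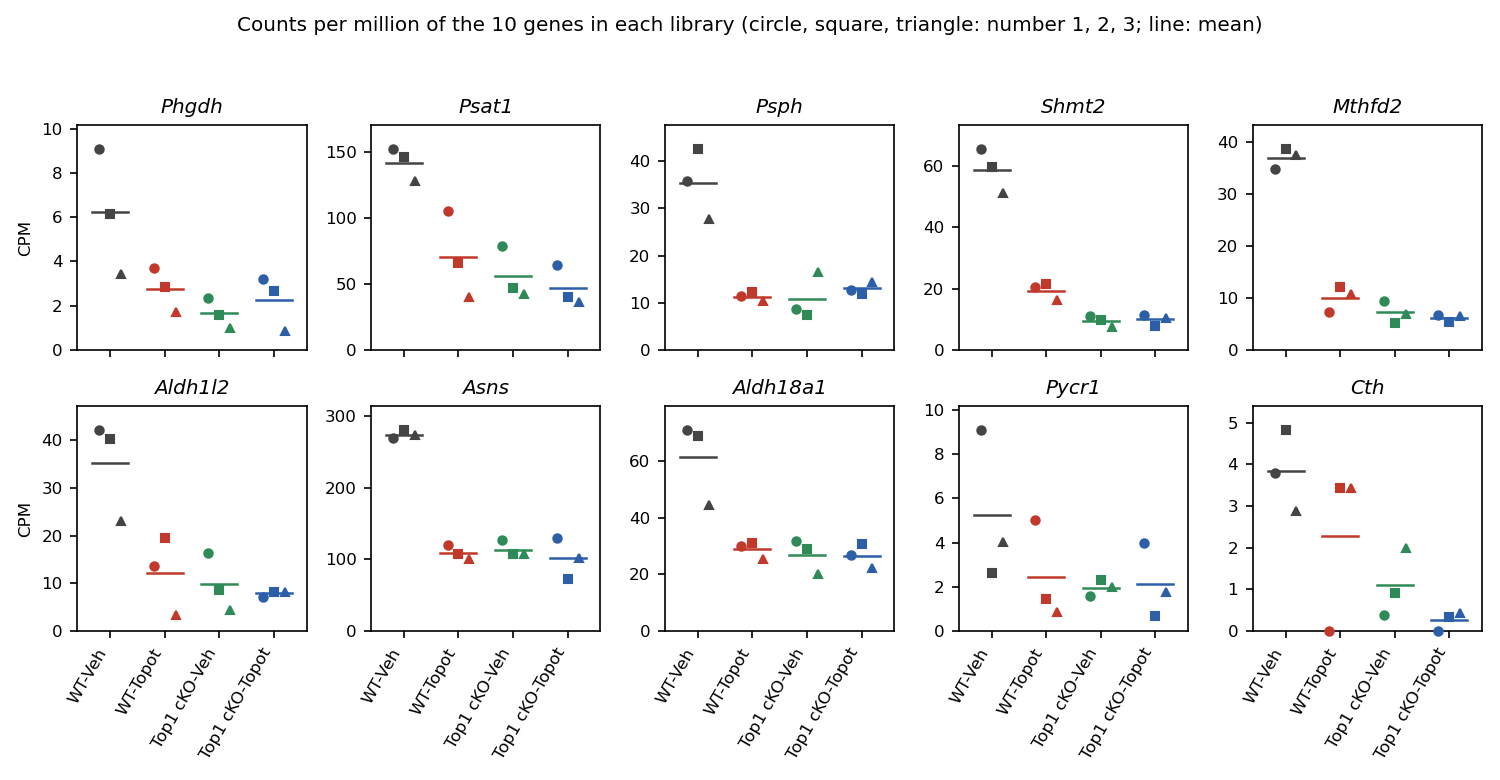
CPM (linear axis from 0) of each of the 10 genes in the 12 libraries, with circles, squares and triangles for replicate numbers 1, 2 and 3 and a line at each group mean. The WT-Veh libraries lie above all others for 7 genes and not for Phgdh, Pycr1 and Cth, where WT-Veh overlaps at least 1 group.

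Across all 10 genes, the group mean was lower than in WT-Veh in each of the 3 other groups. Libraries did not overlap with those of WT-Veh for 7, 10 and 9 of the 10 genes in the 3 groups, beside 13.2%, 10.3% and 14.4% of the 13720 genes that averaged 1 CPM or more. Within replicate numbers, 9 of 10 genes were lower than in WT-Veh in all 3 pairs in WT-Topot, with Cth the exception at 2 of 3, and all 10 were so in both Top1 cKO groups. The median log2 fold change was -1.25, -1.79 and -1.51 in the 3 groups, beside 0.03, -0.01 and 0.02 over all genes that averaged 1 CPM or more.

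A gene was called changed when the Benjamini-Hochberg adjusted p of edgeR's quasi-likelihood test, over all 23893 genes, was below 0.01. In WT-Topot, 5 of the 10 genes (Psph, Shmt2, Mthfd2, Asns and Aldh18a1) were past this threshold, and 7 were with the replicate number as a block, which added Psat1 and Aldh1l2. Of all genes, 2.04% were called lower without and 5% with the block. In Top1 cKO-Veh the threshold was passed by 3 (Shmt2, Mthfd2 and Asns), and by 8 with the block, which left only Pycr1 and Cth outside, beside 0.126% and 2.95% of all genes. The count of 3 came to 1 without WT-Veh 2 or without Top1 cKO-Veh 2, to 7 without WT-Veh 3 and to 5 without Top1 cKO-Veh 1. In Top1 cKO-Topot it was 7, with Phgdh, Pycr1 and Cth outside, and 8 with the block, which added Cth, beside 1.21% and 4.02% of all genes. On leaving out 1 library the counts ran from 4 to 7 in WT-Topot and from 5 to 8 in Top1 cKO-Topot. Aldh18a1 was no longer past the threshold in WT-Topot without WT-Veh 1, WT-Veh 2, WT-Topot 2 or WT-Topot 3, nor in Top1 cKO-Topot without WT-Veh 1, WT-Veh 2 or any 1 of the Top1 cKO-Topot libraries, nor in either with filterByExpr. Psph was not in Top1 cKO-Topot without WT-Veh 2 or Top1 cKO-Topot 2. These counts describe genes selected on the same groups, so they are not a test of the 10 genes. The 3 comparisons share the WT-Veh libraries.

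**Figure D2:**
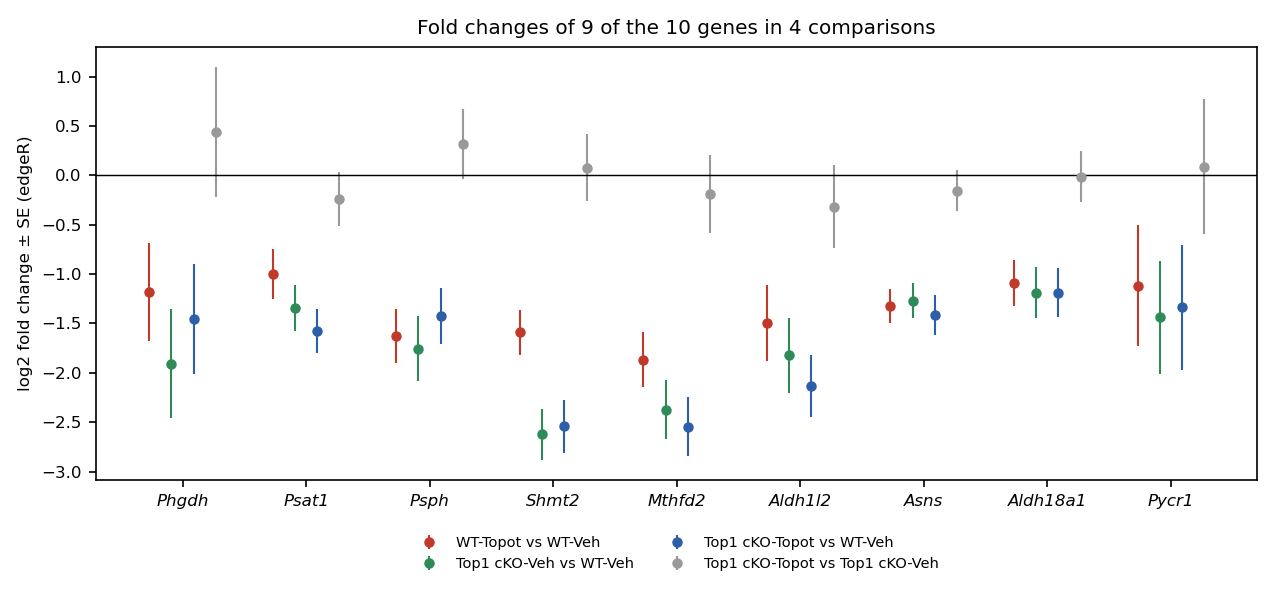
Fitted log2 fold changes (points) with standard errors (bars) of 9 of the 10 genes in 4 comparisons, 3 libraries per group. Cth is left out because a group had 2 counts. Comparisons with WT-Veh all lie below 0, from -2.62 to -1.0, and Top1 cKO-Topot against Top1 cKO-Veh lies around 0, from -0.32 to 0.44.

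Topotecan added to Top1 cKO cultures was compared with vehicle in the same genotype, which does not involve the WT-Veh libraries, although the Top1 cKO-Veh libraries took part in the choice of the genes. None of the 10 genes differed past the threshold between Top1 cKO-Topot and Top1 cKO-Veh, and the edgeR adjusted p was 1 for each of them. Unadjusted p-values ran from 0.118 to 0.959, so 0 of the 10 had an unadjusted p under 0.05, and DESeq2 and the replicate block also called 0. Of the 13625 genes that averaged 1 CPM or more in these groups, 595 were lower and 349 higher at an unadjusted p under 0.05. Only 2 of all genes (0.00837%) were called lower and 0% higher in this comparison, or 1.74% lower with the block. The libraries of the 2 groups overlapped for all 10 genes, while 6.56% of the 13720 genes were lower and 5.17% higher without overlap. Asns differed by -0.16 ± 0.21, Shmt2 by 0.08 ± 0.34, Mthfd2 by -0.19 ± 0.40, Psat1 by -0.24 ± 0.27 and Psph by 0.32 ± 0.36 on the log2 scale. The count ratio of Cth was 0.254 (95% interval 0.0267 to 1.23, exact Poisson, counting error only). The median of the 10 genes was -0.09, beside 0.00 over all genes that averaged 1 CPM or more.

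Among the 3 lower groups, Shmt2 was lower in both Top1 cKO groups than in WT-Topot. It was at 19.4 ± 2.75 CPM (mean ± SD) in WT-Topot, against 9.44 ± 1.75 and 10.004 ± 1.84 in Top1 cKO cultures without and with topotecan. The WT-Topot and Top1 cKO-Veh libraries did not overlap, and the difference was 1.03 ± 0.29 on the log2 scale (edgeR adjusted p = 0.0653, or 0.00196 with the replicate block). The difference of Top1 cKO-Topot from WT-Topot was -0.97 ± 0.30 (edgeR adjusted p = 0.0649, or 0.00394 with the block). Neither difference was past the threshold without the block. The WT-Topot and Top1 cKO-Veh libraries are among those on which the genes were chosen. Of the 10 genes, Shmt2 also had the lowest Top1 cKO-Veh mean relative to WT-Veh. Its adjusted p-values in these comparisons are therefore a description, not a test.

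No other gene of the 10 was called between WT-Topot and either Top1 cKO group, with or without the block. In Top1 cKO-Topot against WT-Topot the threshold was passed by 0 of the 10, and DESeq2 called 0. At an unadjusted p under 0.05, 3 (Shmt2, Psat1 and Cth) were lower. Of the 13700 genes that averaged 1 CPM or more in these groups, 1637 were lower and 1590 higher at that level. All genes called there came to 1.03% lower and 1.46% higher, or 4.08% lower with the block. Besides Shmt2, Mthfd2 was the only gene of the 10 whose libraries did not overlap between these groups, where 14.1% of the 13720 genes were lower without overlap. It was at 7.37 to 12.02 CPM in WT-Topot and 5.31 to 6.77 CPM in Top1 cKO-Topot, with a log2 difference of -0.70 ± 0.37 (edgeR adjusted p = 0.435). The count ratio of Cth was 0.113 (95% interval 0.0128 to 0.465, exact Poisson, counting error only), from 2 against 20 counts. This interval leaves out the spread between cultures. Cth was at 0 CPM in WT-Topot 1 too, so its libraries overlapped between the groups. In WT-Topot against Top1 cKO-Veh the threshold was passed by 0 of 10, and DESeq2 called 0. Shmt2 was the only one without overlap, beside 12.1% of the 13720 genes higher without overlap. It was also the only 1 at an unadjusted p under 0.05. Of the 13687 genes that averaged 1 CPM or more there, 1544 were lower and 1218 higher at that level. Called genes came to 1.23% of all lower and 0.293% higher, or 2.93% higher with the block. Asns differed by -0.06 ± 0.17 and Aldh18a1 by 0.09 ± 0.24 between WT-Topot and Top1 cKO-Veh, both smaller than their standard errors.

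The interaction of topotecan and Top1 deletion asks whether the drug changed a gene's level differently in WT and Top1 cKO cultures. It is positive where the drug lowered the level less in Top1 cKO than in WT. It contains both contrasts on which the genes were chosen, so it is a description for them. The value was positive for 9 of 10 genes, with Cth the exception and a median of 1.18, beside -0.03 over all genes that averaged 1 CPM or more. It was 1.95 ± 0.43 for Psph, 1.66 ± 0.36 for Shmt2, 1.68 ± 0.43 for Mthfd2 and 1.16 ± 0.26 for Asns. The threshold was passed by 0 of the 10 genes in edgeR, by 3 in DESeq2 and by 5 (Psph, Shmt2, Mthfd2, Asns and Aldh18a1) in edgeR with the replicate block. In edgeR without the block, 5 were higher at an unadjusted p under 0.05. Of the 13720 genes that averaged 1 CPM or more, 1025 were higher and 816 lower at that level. Of all genes, 0.398% were called higher and 0.0377% lower, or 2.44% higher with the block.

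Several of the 10 enzymes have paralogs, some of them in another cell compartment. None of 6 paralogs, nor Cbs, which makes the substrate of CTH, was called in any of the 7 comparisons, with or without the block. Shmt1, the cytosolic counterpart of Shmt2, was at 2.19, 1.16, 1.29 and 1.21 CPM in the 4 groups, with log2 fold changes of -0.91 ± 0.77, -0.77 ± 0.74 and -0.76 ± 0.77. Mthfd1, the cytosolic trifunctional folate enzyme, was at 13.8, 12.1, 17.1 and 16.6 CPM, a log2 fold change from WT-Veh of -0.19 ± 0.31, 0.30 ± 0.29 and 0.28 ± 0.31. Mthfd2l, the closest paralog of Mthfd2, was at 4.50, 5.04, 3.17 and 4.34 CPM. The differences of Mthfd1 were about the size of their standard errors or smaller. Mthfd1l, the mitochondrial formate-producing synthetase, differed by -0.89 ± 0.48, -0.90 ± 0.53 and -1.53 ± 0.55, with edgeR adjusted p = 0.488, 0.766 and 0.152. Pycrl differed by 0.71 ± 0.30 in WT-Topot (edgeR adjusted p = 0.288), Aldh1l1 by -0.39 ± 0.57 and Cbs by -0.84 ± 0.69.

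**Figure D3:**
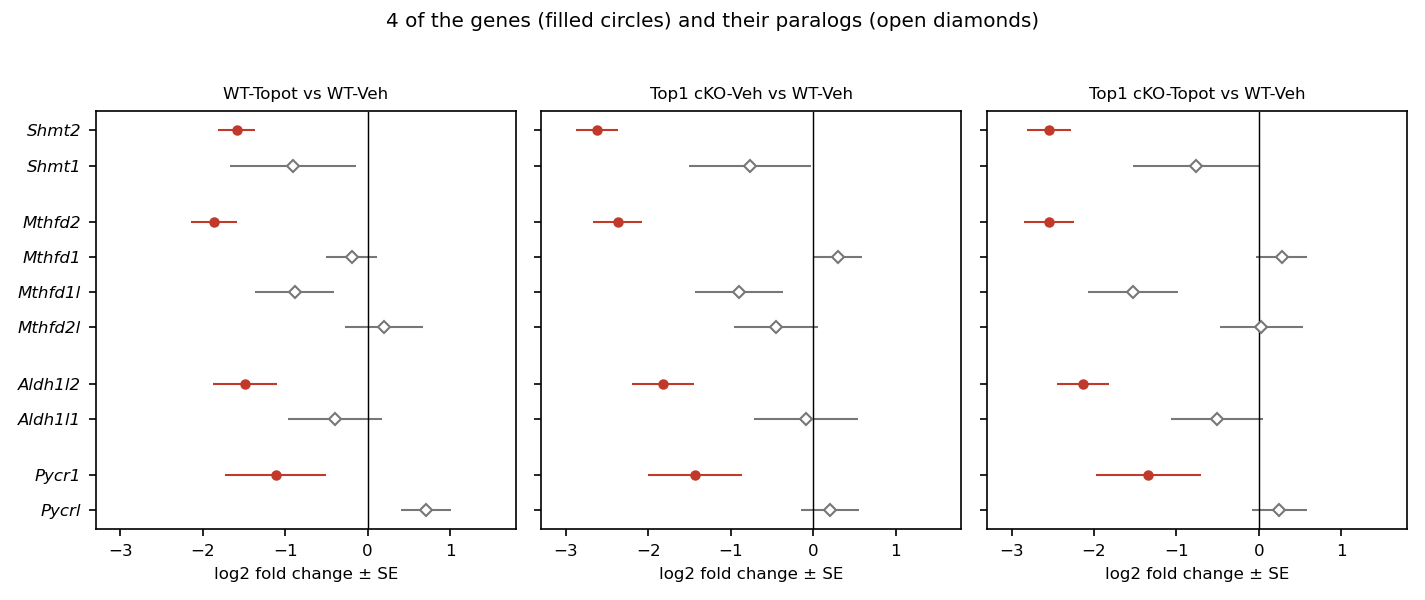
Fitted log2 fold changes (points) with standard errors (bars) from WT-Veh of Shmt2, Mthfd2, Aldh1l2 and Pycr1 (filled circles) and of 6 of their paralogs (open diamonds), 3 libraries per group. The 4 filled circles lie between -2.62 and -1.12, and the paralogs between -1.53 and 0.71, with none of the paralogs called.

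A wider list of 60 genes of serine and glycine, folate, methionine and transsulfuration, proline, and aspartate, glutamate, alanine and branched-chain amino acid metabolism was tested with the same fits. In WT-Topot, 0 were lower and 1 (Cdo1) higher than in WT-Veh by edgeR, beside 0.682% of all genes called higher. At an unadjusted p under 0.05, 5 of the 60 were lower and 6 higher. Of the 13736 genes that averaged 1 CPM or more, 1613 were lower and 1333 higher at that level. These counts are not read as a result about the 60 genes. Cdo1 encodes cysteine dioxygenase, the enzyme that starts cysteine breakdown. Cdo1 was at 24.0, 15.3 and 18.4 CPM in WT-Veh and at 57.3, 50.7 and 64.7 CPM in WT-Topot, and rose by 1.57 ± 0.24 on the log2 scale (edgeR adjusted p = 2.54e-04). In both Top1 cKO groups it was at 17.9 to 30.6 CPM. Its level in Top1 cKO-Topot differed from that in WT-Topot by -1.31 ± 0.23 (edgeR adjusted p = 8.10e-04), and its interaction term was -1.90 ± 0.33 (edgeR adjusted p = 0.00462). Without WT-Veh 2, WT-Topot 1, WT-Topot 3, Top1 cKO-Veh 2 or Top1 cKO-Topot 1, left out in turn, the adjusted p of the interaction of Cdo1 in edgeR was 0.0110 to 0.0155, above the threshold.

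In Top1 cKO-Veh, 0 of the 60 genes were called by edgeR, beside 0.126% of all genes called lower and 0.046% called higher, and 1 was called by DESeq2. At an unadjusted p under 0.05, 5 were lower and 3 higher. Of the 13699 genes that averaged 1 CPM or more, 1057 were lower and 901 higher at that level. These counts too are not read as a result about the 60 genes. In Top1 cKO-Topot 2 were lower than in WT-Veh and 0 higher, beside 1.21% of all genes called lower and 0.473% called higher. Bcat1, the cytosolic branched-chain aminotransferase, was at 233, 278 and 172 CPM in WT-Veh and at 86.0, 89.7 and 66.4 CPM in Top1 cKO-Topot, and fell by 1.47 on the log2 scale (SE 0.21, edgeR adjusted p = 1.60e-04). Srr, the racemase that makes D-serine from L-serine, was at 249, 250.26 and 186 CPM in WT-Veh and at 249.99, 267 and 223 CPM in WT-Topot. It was at 194, 192 and 126 CPM in Top1 cKO-Veh and at 130.25, 124 and 83.9 CPM in Top1 cKO-Topot. Srr was lower in Top1 cKO-Topot than in WT-Veh (-0.998 ± 0.21, edgeR adjusted p = 0.00649) and than in WT-Topot (-1.13 ± 0.18, edgeR adjusted p = 3.55e-04). The call against WT-Veh was lost without WT-Veh 2, Top1 cKO-Topot 2 or Top1 cKO-Topot 3 (edgeR adjusted p = 0.0163 to 0.0258) and with filterByExpr (edgeR adjusted p = 0.0150). The median log2 fold change of the 60 genes from WT-Veh was -0.03, -0.01 and -0.12 in the 3 groups. With the replicate block, 3, 3 and 4 of the 60 were called lower, beside 5%, 2.95% and 4.02% of all genes, and 3, 1 and 2 higher, beside 3.24%, 2.6% and 3.34%. Bcat1, at 113, 160.29 and 104 CPM in WT-Topot and 111, 127 and 68.6 CPM in Top1 cKO-Veh, was then called lower with each single perturbation too (edgeR adjusted p = 7.05e-08 and 1.01e-16), and Srr was lower with topotecan than with vehicle among Top1 cKO cultures (-0.588, edgeR adjusted p = 2.52e-05). The block also called 4.6% of all genes higher in Top1 cKO-Topot than in WT-Topot, 4.8% lower in WT-Topot against Top1 cKO-Veh and 1.53% lower in the interaction.

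ATF4 acts on amino acid response elements in the promoters of several of these enzymes. Its gene was listed with earlier results of these data known, so the adjusted p-values of Atf4 are a description. Atf4 was at 451, 511 and 577 CPM in WT-Veh and at 153, 189 and 146 CPM in WT-Topot, a log2 fold change of -1.65 ± 0.18 (edgeR adjusted p = 5.79e-06). It was at 273, 241 and 305 CPM in Top1 cKO-Veh (-0.91 ± 0.17, edgeR adjusted p = 0.0235, and 1.55e-14 with the block) and at 358, 255 and 363 CPM in Top1 cKO-Topot (-0.63 ± 0.18, edgeR adjusted p = 0.0599, and 1.46e-04 with the block). Of the 3 groups, Atf4 was lowest in WT-Topot and Shmt2 in the Top1 cKO groups. Atf4 was higher in Top1 cKO-Topot than in WT-Topot by 0.99 ± 0.18 (edgeR adjusted p = 9.07e-04), where Shmt2 differed by -0.97 ± 0.30, Asns by -0.11 ± 0.20 and Psph by 0.19 ± 0.31. Its interaction term was 1.91 ± 0.25 (edgeR adjusted p = 4.07e-04). These are RNA levels, whereas ATF4 is controlled in large part at translation.

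**Figure D4:**
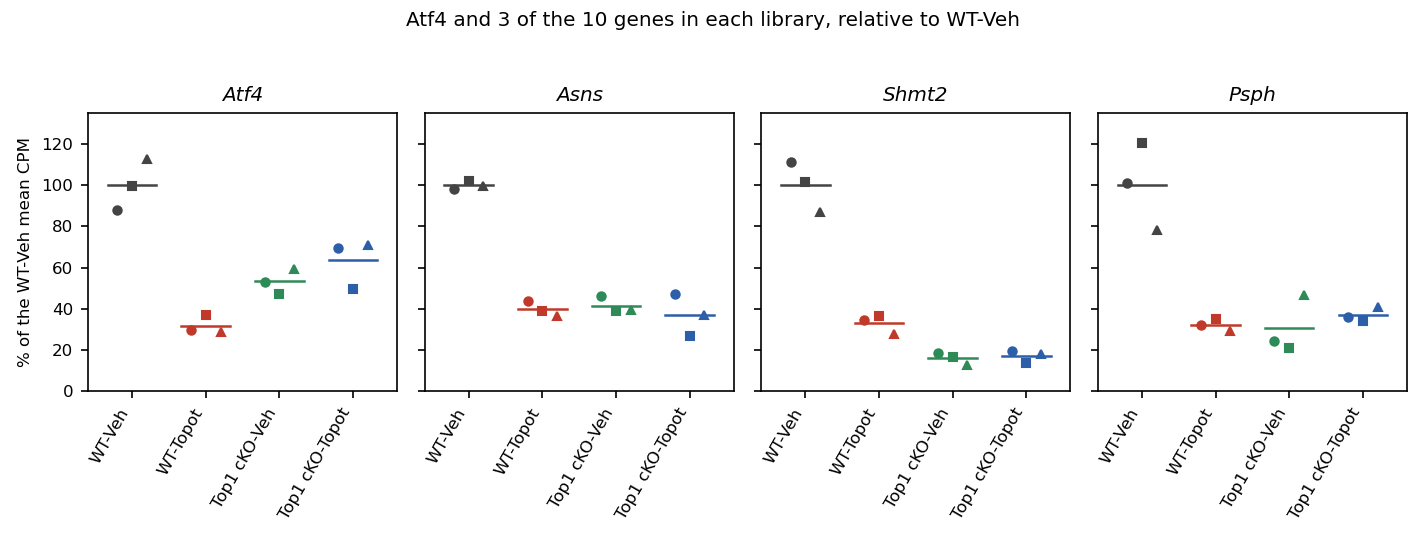
Atf4, Asns, Shmt2 and Psph in each library as a percentage of the WT-Veh mean CPM (linear axis from 0), with circles, squares and triangles for replicate numbers 1, 2 and 3 and a line at each group mean. Atf4 is lowest in WT-Topot at 31.8% and at 53.2% and 63.4% in the Top1 cKO groups, whereas Asns is at 37.0 to 41.5% in all 3 lower groups and Shmt2 is lowest in the Top1 cKO groups.

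Among 12 genes of the amino acid and integrated stress response, including Atf4, 3 were called lower in WT-Topot than in WT-Veh (Atf4, Chac1 and Stc2), 1 in Top1 cKO-Veh (Chac1) and 3 in Top1 cKO-Topot (Atf5, Chac1 and Stc2), and none was called higher. The call of Atf5 was lost without WT-Veh 2, Top1 cKO-Topot 1 or Top1 cKO-Topot 2 (edgeR adjusted p = 0.0139 to 0.0274). Of all genes, 2.04%, 0.126% and 1.21% were called lower in the 3 groups. The 12 genes were listed with earlier results of these data known, so their calls and adjusted p-values are a description. With the replicate block, 7, 8 and 8 of the 12 were called lower, beside 5%, 2.95% and 4.02% of all genes. Chac1, which encodes a glutathione-degrading enzyme, was at 62.0 ± 2.99, 12.4 ± 5.04, 10.7 ± 2.08 and 12.4 ± 4.70 CPM in the 4 groups. As for Asns, the 3 lower groups lay together. The log2 fold changes of Chac1 were -2.30 ± 0.27, -2.56 ± 0.25 and -2.32 ± 0.28 (edgeR adjusted p = 1.76e-05, 2.18e-04 and 3.14e-05). Stc2, a secreted glycoprotein gene, was at 29.0 ± 8.94, 3.96 ± 1.26, 7.02 ± 3.97 and 2.66 ± 0.918 CPM. The median log2 fold change of the 12 genes was -1.11, -1.05 and -0.97 in the 3 groups.

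Some of the 10 genes differed in level between replicate numbers. Psat1 and Phgdh were highest in the library numbered 1 and lowest in that numbered 3 in 4 of 4 groups, and Aldh18a1 was lowest in number 3 in 4 of 4. The summed astrocyte markers had the same order, at 4445, 3305 and 2320 CPM in WT-Veh, 1734, 1312 and 1045 CPM in WT-Topot, 5803, 3688 and 2627 CPM in Top1 cKO-Veh and 3009, 2438 and 1648 CPM in Top1 cKO-Topot. Of the 8 astrocyte markers, 3 (Gfap, Slc1a3 and Slc1a2) were called lower in WT-Topot than in WT-Veh. For Top1 cKO-Veh and for Top1 cKO-Topot the count was 0 by edgeR, with 0 and 4 lower at an unadjusted p under 0.05. Of genes that averaged 1 CPM or more, 1057 of 13699 and 1634 of 13712 were lower at that level. With the block, 5, 0 and 4 were called lower in the 3 groups. Summed astrocyte marker RNA was lower with topotecan in both genotypes and differed with replicate number. Of the 8 markers, 6 had a log2 fold change below 0 in WT-Topot against WT-Veh. All 8 did in Top1 cKO-Topot against Top1 cKO-Veh. Aldoc averaged 384 CPM in WT-Veh and 405 CPM in WT-Topot. The part of astrocyte RNA in the levels of Psat1 and Phgdh was not tested. Of the 8 neuron markers, 1 was called in WT-Topot against WT-Veh, lower (with the block 5 lower and 2 higher), and 4 in Top1 cKO-Topot against WT-Topot, 1 lower and 3 higher, and their part was not tested either. In Top1 cKO-Veh the summed astrocyte markers were higher than in WT-Veh at each replicate number. Slc1a2, the largest part of the sum, averaged 1530 CPM in WT-Veh and 2063 CPM in Top1 cKO-Veh, and Gfap 665 and 674 CPM. The median log2 fold change of the 8 markers was 0.08, with 3 of 8 below 0 and 1 called higher with the block. Psat1 in Top1 cKO-Veh was at 39.4% and Phgdh at 26.5% of the WT-Veh mean. Markers of proliferating and progenitor cells (7 genes) summed to 85.2 to 136, 162 to 207, 91.2 to 178 and 126 to 282 CPM in the 4 groups. Of these, Nes, an intermediate filament gene of progenitors and reactive astrocytes, was at 45.2, 106, 63.2 and 153 CPM on average, Sox2 at 66.8, 70.4, 66.3 and 67.7 CPM, and the 5 proliferation genes at 1.47 CPM or less.

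**Figure D5:**
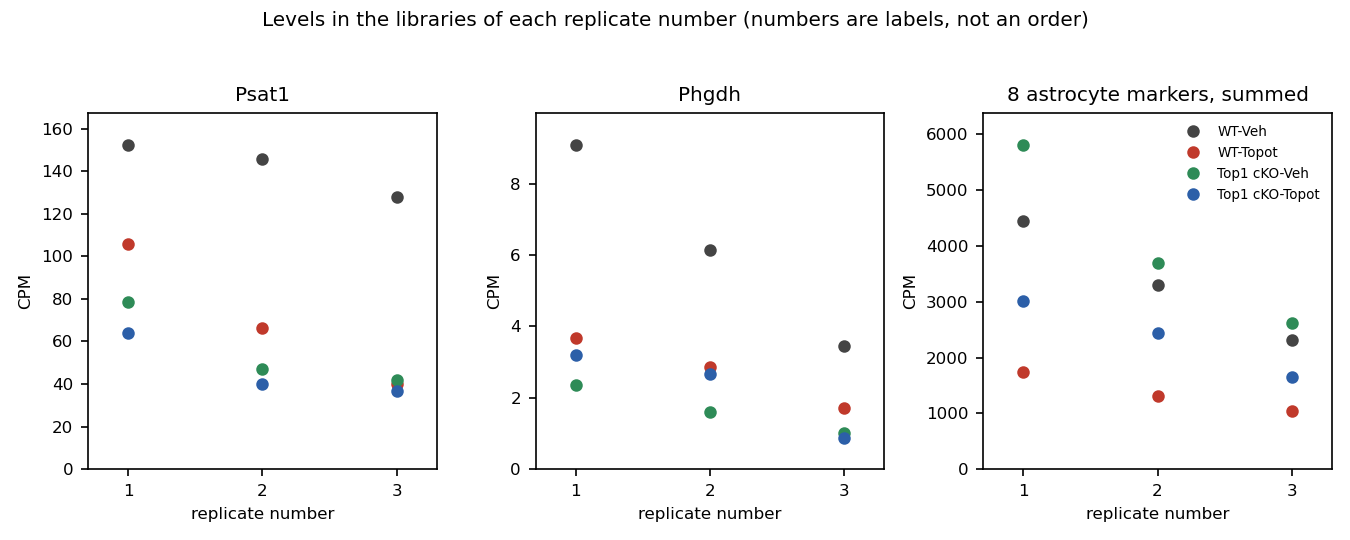
CPM (linear axes from 0) of Psat1, Phgdh and the sum of 8 astrocyte markers in the libraries of each replicate number, coloured by group. All 3 quantities are highest in number 1 and lowest in number 3 in every group. The astrocyte sum is highest in Top1 cKO-Veh, and Phgdh is lowest there in numbers 1 and 2. The relation of the quantities was not tested.

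Relative to exon length, Asns was the highest at 100.3 ± 2.09 CPM per kb of exon in WT-Veh, followed by Psat1 at 33.4 ± 2.97, Shmt2 at 25.8 ± 3.15, Psph at 19.4 ± 4.09, Aldh18a1 at 15.4 ± 3.71 and Mthfd2 at 13.6 ± 0.707. Libraries of neighbours in this order overlapped from Shmt2 to Mthfd2 and again from Aldh1l2 to Pycr1. Aldh1l2 was at 4.69 ± 1.40, Phgdh at 2.50 ± 1.13, Cth at 1.69 ± 0.429 and Pycr1 at 1.33 ± 0.861 CPM per kb. The counts are over RefSeq exons and the lengths are of merged GENCODE exons, so the order of genes can depend on the annotation. Asns and Psat1 kept the first and second place in all 4 groups. Shmt2 was the third in both WT groups and ranked 5 in both Top1 cKO groups, at 4.14 ± 0.769 and 4.39 ± 0.807 CPM per kb.

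None of the 10 genes is long: their spans in the mm9 annotation run from 5.3 kb (Shmt2) to 46.7 kb (Aldh1l2), and Top1 itself spans 76.9 kb. The 250 bases before each RefSeq start site (GRCm38.p6) were searched on both strands for TGATGNAA, the core letters of the amino acid response element bound by ATF4 and C/EBP proteins. Windows were found for 8 of the 10 genes, not for Aldh1l2 and Cth. The letters were present in 2 of the 8, beside 1056 of 27025 genes (3.91%) with a window. The windows of Asns and Pycr1 are shown because they hold the letters, and those of Shmt2 and Mthfd2 because these genes had the lowest Top1 cKO-Veh levels relative to WT-Veh and do not. Capitals mark the match, and each sequence ends at the base before the start site, read on the minus strand.
Asns, chr6:7693210-7693459: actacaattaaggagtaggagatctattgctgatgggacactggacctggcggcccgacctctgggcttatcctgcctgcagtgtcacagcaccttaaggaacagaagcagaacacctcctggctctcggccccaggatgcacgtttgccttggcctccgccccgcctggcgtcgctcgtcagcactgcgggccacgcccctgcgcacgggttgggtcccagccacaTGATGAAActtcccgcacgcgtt
Pycr1, chr11:120643749-120643998: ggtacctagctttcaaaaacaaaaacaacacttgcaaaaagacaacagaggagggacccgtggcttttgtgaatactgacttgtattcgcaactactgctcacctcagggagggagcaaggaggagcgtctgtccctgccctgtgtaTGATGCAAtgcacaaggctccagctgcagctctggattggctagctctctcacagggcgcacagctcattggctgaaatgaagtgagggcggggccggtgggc
Shmt2, chr10:127522445-127522694: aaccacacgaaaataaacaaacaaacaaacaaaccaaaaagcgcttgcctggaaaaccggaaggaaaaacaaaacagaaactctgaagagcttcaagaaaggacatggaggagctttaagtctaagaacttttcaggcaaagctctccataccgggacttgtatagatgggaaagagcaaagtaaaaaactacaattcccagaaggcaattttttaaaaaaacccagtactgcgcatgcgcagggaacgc
Mthfd2, chr6:83317605-83317854: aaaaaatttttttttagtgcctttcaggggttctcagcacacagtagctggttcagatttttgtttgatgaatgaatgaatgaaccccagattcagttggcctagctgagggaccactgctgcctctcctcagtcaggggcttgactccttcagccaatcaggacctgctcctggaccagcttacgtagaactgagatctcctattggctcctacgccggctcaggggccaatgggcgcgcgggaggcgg

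The Asns match, TGATGAAA, lay 23 to 16 bases before the start site, and the Pycr1 match, TGATGCAA, 103 to 96 bases before it. The search covers these letters in this window alone.

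Outside the list, the genes whose levels over the 12 libraries were most like the mean of the 10 were sought among the 9500 that averaged 10 CPM or more, by Pearson's r of log2(CPM + 1) with the mean of the 10 standardised genes. The libraries share groups and replicate numbers, so r is a description. The 5 highest were Cyb5r1 (r = 0.982), Yars (0.967), Aars (0.966), Slc3a2 (0.965) and Slc1a4 (0.962). Yars and Aars encode tyrosyl- and alanyl-tRNA synthetases, Slc3a2 the heavy chain of several amino acid exchangers, and Slc1a4 a neutral amino acid transporter. Cyb5r1, a cytochrome b5 reductase gene, was at 112 ± 26.4, 34.6 ± 7.08, 23.7 ± 6.16 and 19.1 ± 3.92 CPM (mean ± SD) in the 4 groups. Aars was at 250.3 ± 50.9, 141 ± 19.9, 111 ± 17.7 and 105 ± 17.7 CPM. By Spearman's rho only 2 of these 5 stayed among the first 5, and 1 did when levels were taken relative to the mean of each replicate number. Among the 10 genes themselves, r with the mean of the other 9 ran from 0.533 (Cth) to 0.960 (Shmt2), which includes the differences between groups on which they were chosen. Within groups it ran from -0.448 (Cth) to 0.811 (Shmt2), with -0.0280 for Psph and 0.141 for Mthfd2.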

How the data were processed

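Total RNA was made into poly-A cDNA libraries with a TruSeq kit, 3 per group. Per the labels the authors aligned reads to mm9 with TopHat. After removal of reads on rRNA genes, the authors deposited raw counts per gene symbol over RefSeq exons. The counting program, its strand setting and software versions are not given in the sources used here, so reads of overlapping genes may be shared. Groups and replicate numbers came from sample titles, and 12 of 12 columns of samples were used. The 10 genes, the lists and the tests were chosen with earlier results of these data known. From the deposited counts, each pair of groups was fitted on its 6 libraries, and the interaction on all 12, with edgeR 4.0.16 (R 4.3.3): TMM scaling, glmQLFit and glmQLFTest, no filter on low counts, no block, Benjamini-Hochberg adjustment over 23893 genes and a threshold of 0.01. The standard error is the log2 fold change divided by the square root of F. Of the genes, 5182 had no count and 13720 a mean of at least 1 CPM, among them all 10. Library totals were 1730164 to 4583777 counts, and values of a few CPM rest on few reads. The script was tested on simulated data. The numbers 1, 2 and 3 in the titles pair the libraries: deviations from group means correlated at 0.261 to 0.485 in 18 same-number pairs of libraries from different groups and at -0.384 to -0.0494 in 36 different-number pairs, over 13720 genes. Values with the number as a block are therefore given where they change a call. Genes named were the 10, 7 related genes named in any case (1 other is not reported here), listed genes past the threshold (at most 6 per comparison), the 5 most alike and Top1, with Cldn5 and Itgam chosen after their values were seen. Alternatives were RLE scaling, filterByExpr, 1 fit on all 12 libraries, the block, DESeq2 1.42.0, a threshold of 0.05 and leaving out each library, and those for regulators and for single genes outside the 10 were added after seeing the data. Promoters are RefSeq, GRCm38.p6, and exon lengths GENCODE, mm9 coordinates. P-values without the block measure the spread between cultures of a group and leave out the pairing. Those with the block measure the spread left after the replicate number is taken out.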

Additional observations from a re-analysis of the deposited data

Results flagged for a closer look

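The effect of topotecan differed between genotypes by the interaction test in 3 of the genes tested beside the 10 enzymes. Atf4 and Chac1 were listed with earlier results of these data known, so their adjusted p-values are a description. The difference, Top1 cKO minus WT, was -1.90 on the log2 scale for Cdo1 (edgeR adjusted p = 0.00462), 1.91 for Atf4 (edgeR adjusted p = 4.07e-04) and 2.52 for Chac1 (edgeR adjusted p = 0.00589). Cdo1 rose with topotecan in WT cultures and differed by -0.33 ± 0.25 with it in Top1 cKO cultures. Atf4 fell with topotecan in WT and differed by 0.27 ± 0.17 in Top1 cKO, and Chac1 fell in WT and differed by 0.23 ± 0.36 in Top1 cKO. The call of Chac1 was lost (edgeR adjusted p = 0.0129 to 0.0169) without WT-Veh 2, WT-Topot 1, WT-Topot 3, Top1 cKO-Veh 2, Top1 cKO-Topot 1 or Top1 cKO-Topot 3. With filterByExpr it was lost too (edgeR adjusted p = 0.0113).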

How the results depend on the processing

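Directions against WT-Veh held for all 10 genes under every alternative that tested them. With the replicate block, which the pairing of libraries calls for, calls among the 10 genes went from 3 to 8 in Top1 cKO-Veh, from 0 to 1 in Top1 cKO-Topot against WT-Topot and in WT-Topot against Top1 cKO-Veh, and from 0 to 5 in the interaction. With DESeq2 and with a threshold of 0.05 they were 7 in Top1 cKO-Veh and 3 in the interaction, and with filterByExpr, which tested 7 of the 10, 1 in Top1 cKO-Veh. For the 60 other pathway genes the block gave 6 in WT-Topot, 4 in Top1 cKO-Veh, 6 in Top1 cKO-Topot against WT-Veh, 2 against Top1 cKO-Veh, 9 against WT-Topot, 6 in WT-Topot against Top1 cKO-Veh and 2 in the interaction. For them DESeq2 gave 2 in WT-Topot, 1 in Top1 cKO-Veh, 1 between these groups, the threshold of 0.05 gave 3, 1 and 1, and filterByExpr 1 in Top1 cKO-Topot. For the 12 regulators, whose alternatives were added after seeing the data, the block gave 7, 8 and 8 against WT-Veh and 1 in WT-Topot against Top1 cKO-Veh. DESeq2 and the threshold of 0.05 each gave 4 of them in Top1 cKO-Veh and 1 between it and WT-Topot, the threshold also 6 in WT-Topot, and filterByExpr 1 in the interaction. Leaving out 1 library gave, for the 10 genes, 1 to 7 calls in Top1 cKO-Veh and 0 to 1 in the interaction. For the other pathway genes it gave 1 to 3 in WT-Topot, 0 to 1 in Top1 cKO-Veh, 1 to 4 in Top1 cKO-Topot against WT-Veh, 0 to 2 in WT-Topot against Top1 cKO-Veh and 0 to 1 in the interaction. For the regulators it gave 1 to 3 in Top1 cKO-Veh, 2 to 5 in Top1 cKO-Topot and 1 to 2 in the interaction. The cause of these shifts was not tested. Shares of all genes called are given for the main fit and the block alone. Counts under DESeq2, the threshold of 0.05, filterByExpr or a left-out library, here and above, therefore have no such share beside them. They are not read as results about the listed genes.

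Values that were never called changed sign. With the block, Top1 cKO-Topot against Top1 cKO-Veh came to 0.000192 for Aldh18a1 and -0.0502 for Pycr1. On leaving out 1 library, that comparison ran from -0.17 to 0.11 for Aldh18a1, -0.62 to 0.22 for Aldh1l2, -0.38 to 0.0382 for Asns, -0.41 to 0.0516 for Mthfd2, -0.54 to 0.0867 for Psat1, -0.75 to 0.55 for Pycr1 and -0.0496 to 0.23 for Shmt2. Top1 cKO-Topot against WT-Topot ran from -0.33 to 0.0761 for Asns, -0.60 to 0.0572 for Phgdh and -1.08 to 0.80 for Pycr1. WT-Topot against Top1 cKO-Veh ran from -0.0754 to 0.21 for Aldh18a1, -0.16 to 0.84 for Aldh1l2, -0.12 to 0.0258 for Asns, -0.0577 to 0.66 for Psat1, -0.12 to 0.51 for Psph and -0.71 to 0.69 for Pycr1. Phgdh, Pycr1 and Cth had at most 51 counts in a group, so their values rest on few reads.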
